A study of Mus musculus with 9 samples.

Results

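Wnt ligands, their receptors and the secreted proteins that modulate them were followed in cultured mouse aortic valves. The members are all probe sets with a single gene symbol in the array's annotation table that names a Wnt, Frizzled, Sfrp, Dkk or R-spondin gene, or one of 14 further pathway genes (Frzb, Wif1, Axin2, Lef1, Lgr4, Lgr5, Lgr6, Notum, Nkd1, Nkd2, Rnf43, Znrf3, Sp5 and Apcdd1). They number 56 probe sets of 55 genes, among 23397 tested probe sets (21780 with a single symbol) and 28270 rows in all. Only Wnt4 has 2 probe sets, and Tcf7 was not analysed here. All 56 were tested, with no filter on low values.

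Wnts are secreted lipid-bearing ligands that bind Frizzled receptors and the co-receptors Lrp5 and Lrp6, which spares beta-catenin from destruction so that it can act with Tcf and Lef factors on target genes, or that act through other receptors on cell polarity and movement. Sfrp proteins, Frzb and Wif1 bind the ligand outside the cell, and Dickkopf proteins block the co-receptors. The ubiquitin ligases Rnf43 and Znrf3 remove Frizzled receptors from the surface, and R-spondins, acting with Lgr receptors, remove those ligases. In the heart the pathway is known for its part in the growth and remodelling of the endocardial cushions that become valves.

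Aortic valves of C57BL/6J pups at postnatal day 1 were pooled, 5 to 6 pups to a sample, and kept on floating filters in serum-containing medium for 48 hours. All 3 groups share that background, age and culture. The control group received DMSO at 0.001%, the second group 1 µmol/L all-trans retinoic acid (ATRA) dissolved in DMSO, and the third LE540, an antagonist of retinoic acid receptors, whose dose and vehicle the labels do not give. There were 3 biological replicates per group, each a separate pool on its own array, 9 arrays in all. Values are the authors' RMA intensities on a linear scale, listed below in the order of replicates 1, 2 and 3. A log2 change is the difference of group means of log2 intensity, with its standard error (SE) from a limma fit over all 9 arrays. The threshold for passing, taken from the series' design text, was an adjusted p under 0.1, with the Benjamini-Hochberg adjustment made over all 23397 probe sets. The sex of the pups is not given in the labels. Sex marker genes differed in mean between DMSO and both other groups (given with Lgr6 below), so sex make-up of the pools cannot be told apart from treatment there. Pools are mixtures of cells in which fewer cells of a type and less RNA per cell cannot be told apart.

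Averaged over the arrays, all 10 valve interstitial markers lay above the array median, as did 11 of 12 cardiomyocyte, 10 of 10 macrophage and 8 of 12 endothelial markers. Log2 values of LE540 replicate 1 correlated least with the other arrays (r = 0.956 to 0.969 over the tested probe sets, which are not independent). Array medians of the tested probe sets lay between 134 and 139 and lower quartiles between 64.5 and 69.1. Of the members, 12 lay above the median on all 9 arrays, 3 (Wnt1, Wnt3 and Wnt8b) lay below the lower quartile on all 9, and 41 did neither. How far a dim probe set stands above background is unknown in these values.

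Of the Wnt components a single member passed the test. Lgr6, a receptor for R-spondins, rose with ATRA 1.62-fold over DMSO and 1.59-fold over LE540. Its call over DMSO was lost with the replicate number as a block (adjusted p = 0.164) and in 8 of 9 fits with 1 array left out; the block kept its call over LE540 and added Frzb there. In ATRA vs DMSO 1 of 56 members passed, upward, against 0.0812% of all tested probe sets (19 of 23397; 0.0769% upward). In LE540 vs DMSO 0 of 56 passed in limma, against 0.0299% (7 of 23397), although 5 members had an unadjusted p under 0.05. In ATRA vs LE540 1 of 56 passed, upward, against 0.603% (141 of 23397; 0.410% upward).

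The members' median log2 change was 0.03 in ATRA vs DMSO (all tested probe sets -0.01), -0.01 in LE540 vs DMSO (0.02) and -0.0023 in ATRA vs LE540 (-0.03). Groups did not overlap for 5 members in ATRA vs DMSO (8.93%, against 11.3% of all tested), for 7 in LE540 vs DMSO (12.5%, against 12.6%) and for 11 in ATRA vs LE540 (19.6%, against 11.5%). At an unadjusted p under 0.05 there were 3 members in ATRA vs DMSO (5.36%, against 4.70% of all tested) and 5 in LE540 vs DMSO (8.93%, against 8.80%), and ATRA vs LE540 held 12 members that were higher and 1 that was lower with ATRA, 23.2% of the members against 9.54% of all tested. Without LE540 replicate 1 these counts were 5 and 2 (12.5%, against 7.57%), without ATRA replicate 1 they were 5 and 1 (10.7%, against 7.38%) and without ATRA replicate 3 they were 7 and 1 (14.3%, against 7.18%). With an endothelial marker score as a covariate, added after the data were seen, they were 7 and 2 (16.1%, against 11.4%). All 12 endothelial markers had higher means in ATRA vs LE540, with none passing. With the replicate number as a block, Emcn passed there (log2 change 1.84, limma adjusted p = 0.0144).

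**Figure D1:**
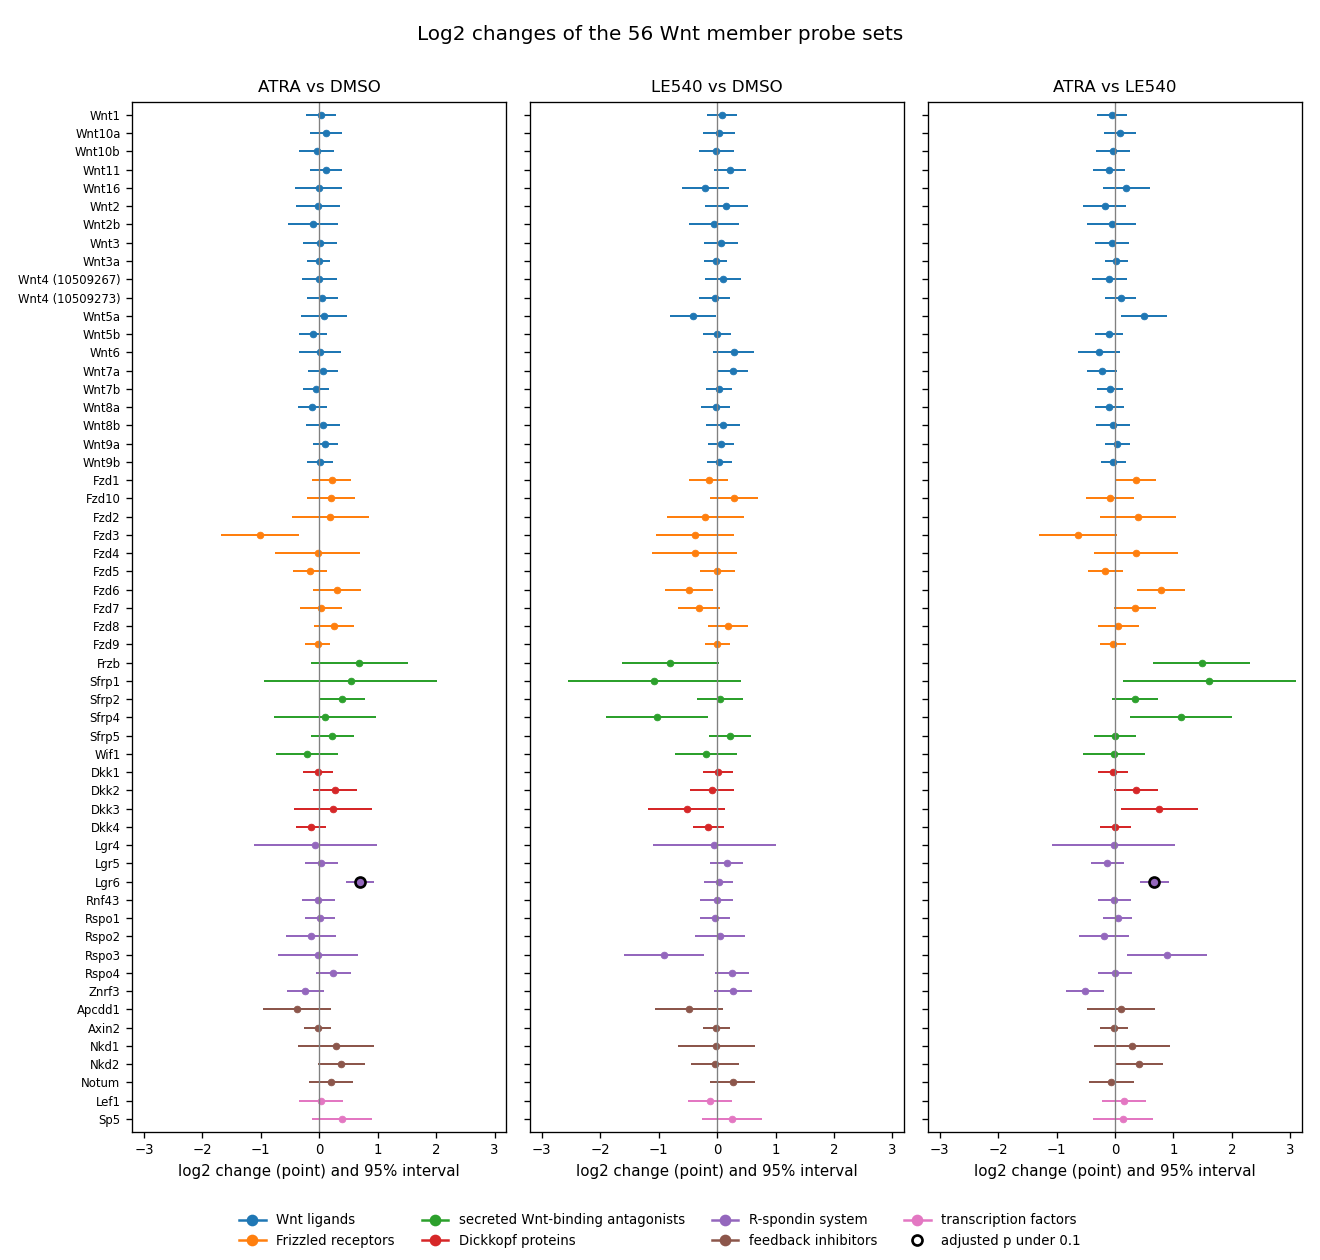
Log2 change (x axis, point) with its 95% confidence interval (line) of each of the 56 member probe sets (y axis), coloured by role, in the 3 comparisons. Lgr6, ringed, is the single member past an adjusted p of 0.1, in ATRA vs DMSO and in ATRA vs LE540, while the intervals of the Wnt ligands are short and mostly cross 0 and those of Sfrp1, Sfrp4, Frzb and Lgr4 are wide.

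None of the 20 Wnt probe sets passed in any comparison in limma. At an unadjusted p under 0.05 they held 0 in ATRA vs DMSO, 2 in LE540 vs DMSO and 1 in ATRA vs LE540. These are 0%, 10% and 5% of the Wnt probe sets, against 4.70%, 8.80% and 9.54% of all tested. Their log2 changes ran from -0.12 to 0.12 with ATRA over DMSO, the range from Wnt8a to Wnt11, and from -0.41 to 0.28 with LE540 over DMSO, the range from Wnt5a to Wnt6. Wnt4 (probe set 10509273) and Wnt5b were the 2 ligand probe sets above the array median on all 9 arrays. The other Wnt4 probe set (10509267) lay below the median on all 9 arrays. The 95% interval of Wnt4 (10509273) in ATRA vs DMSO was -0.20 to 0.30 and that of Wnt5b -0.34 to 0.11, on the log2 scale.

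Wnt5a (10413482), a ligand known mainly for signalling without beta-catenin, read 165, 145 and 141 on the DMSO arrays, 199.8, 141 and 143 on the ATRA arrays and 98.5, 109.7 and 133 on the LE540 arrays. The LE540 arrays lay below every DMSO and every ATRA array, yet Wnt5a did not pass in LE540 vs DMSO (log2 change -0.41, SE 0.17, adjusted p = 0.548) or in ATRA vs LE540 (log2 change 0.50, SE 0.17, adjusted p = 0.374). Wnt7a (10546339), a ligand known from epithelia and endothelium, read 58.4, 58.3 and 62.4 on the DMSO arrays, 62.4, 66.5 and 57.7 on the ATRA arrays and 78.9, 73.1 and 65.3 on the LE540 arrays. Its LE540 arrays lay above every DMSO array without passing (log2 change 0.28, SE 0.10, adjusted p = 0.541), at a brightness near the lower quartile of the arrays.

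Among the 10 Frizzled receptors none passed in any comparison in limma. At an unadjusted p under 0.05 there was 1 in ATRA vs DMSO, 1 in LE540 vs DMSO and 3 in ATRA vs LE540. These are 10%, 10% and 30%, against 4.70%, 8.80% and 9.54% of all tested probe sets. Fzd3 (10420846), a receptor known for planar polarity and axon guidance, read 521, 369.6 and 308 on the DMSO arrays, 136, 269 and 196 on the ATRA arrays and 232, 322 and 356 on the LE540 arrays. Each ATRA array lay below each DMSO array, and the LE540 arrays overlapped both groups. The ATRA difference, the largest of any member in size in ATRA vs DMSO, did not pass (log2 change -1.02, SE 0.29, adjusted p = 0.733, 95% interval -1.67 to -0.37).

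Fzd6 (10423825), which shares the polarity role of Fzd3, read 224, 289.8 and 224 on the DMSO arrays, 355, 271 and 286 on the ATRA arrays and 211, 148 and 172 on the LE540 arrays. Its 3 groups were ordered LE540, DMSO, ATRA by their means; LE540 did not overlap either other group, and ATRA overlapped DMSO. It did not pass in ATRA vs LE540 (log2 change 0.78, SE 0.17, adjusted p = 0.154) or in LE540 vs DMSO (log2 change -0.48, SE 0.17, adjusted p = 0.541). Fzd6 and Fzd3 lay on opposite sides of 0 in ATRA vs LE540, where Fzd3 had a log2 change of -0.63 (SE 0.29), or -0.38 without ATRA replicate 1; the difference between the pair was not tested.

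Fzd1 (10527936) and Fzd7 (10346607), related receptors that can signal through beta-catenin, were above the array median on every array. Fzd1 read 399, 401 and 365 on the DMSO arrays, 486, 426 and 438 on the ATRA arrays and 284, 412 and 369 on the LE540 arrays. Fzd1 was lower on every DMSO and LE540 array than on any ATRA array, by a margin that did not pass (log2 change 0.21, SE 0.14, adjusted p = 0.999 over DMSO; log2 change 0.36, SE 0.14, adjusted p = 0.469 over LE540). Without LE540 replicate 1 the latter change was 0.20. Fzd7 read 611, 537 and 545 on the DMSO arrays, 568, 482 and 695 on the ATRA arrays and 402, 458 and 507 on the LE540 arrays. Every LE540 array of Fzd7 lay below every DMSO array (log2 change -0.31, SE 0.15, adjusted p = 0.584). The 6 other Frizzled members had log2 changes between -0.16 and 0.25 in ATRA vs DMSO and between -0.39 and 0.28 in LE540 vs DMSO, from Fzd4, the receptor for norrin in blood vessels, to Fzd10.

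The secreted Wnt-binding antagonists had the largest median difference between ATRA and LE540 of the 7 roles, with large spread within groups. Of the 6, 5 had higher means with ATRA than with LE540, as did 43.1% of all tested probe sets. The median log2 change was 0.74, against -0.03 over all tested probe sets. Among the 5 was Sfrp5 with a change of only 0.0019, and Wif1 had -0.014. None of the 6 passed in limma, and 3 had an unadjusted p under 0.05 (50%, against 9.54% of all tested). Their median was 0.30 in ATRA vs DMSO, 0.19 without DMSO replicate 1, and -0.50 in LE540 vs DMSO, -0.22 without LE540 replicate 1.

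Frzb (10484307), a Frizzled-related protein first known from cartilage, read 545, 499 and 599 on the DMSO arrays, 585, 1057 and 1089 on the ATRA arrays and 219, 252 and 556 on the LE540 arrays. ATRA replicates 2 and 3 stood well above all DMSO arrays while ATRA replicate 1 lay inside the DMSO range, and LE540 replicates 1 and 2 stood below while LE540 replicate 3 lay inside it. In ATRA vs LE540 the groups did not overlap, and Frzb did not pass (log2 change 1.49, SE 0.36, adjusted p = 0.192); with the replicate number as a block its adjusted p was 0.0943, which passes, and without LE540 replicate 3 it was 0.0533 (log2 change 1.90). Without LE540 replicate 1 the adjusted p was 0.486 (log2 change 1.23).

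Sfrp1 (10570957), a Frizzled-related antagonist, read 714, 356 and 925 on the DMSO arrays, 964, 682 and 1101 on the ATRA arrays and 105, 319.8 and 753 on the LE540 arrays. Its LE540 arrays spread over a wide range, the lowest being replicate 1, and LE540 replicate 3 lay above ATRA replicate 2. The difference did not pass in ATRA vs LE540 (log2 change 1.61, SE 0.64, adjusted p = 0.473), and it had a log2 size of 0.87 without LE540 replicate 1. Sfrp4 (10403834), a Frizzled-related antagonist also known from bone, read 179, 122 and 182 on the DMSO arrays, 116, 325 and 131 on the ATRA arrays and 87.9, 90.3 and 58.2 on the LE540 arrays. All 3 LE540 arrays lay below every DMSO and ATRA array, and ATRA replicate 2 stood far above the other 2 ATRA arrays. Sfrp4 did not pass in LE540 vs DMSO (log2 change -1.04, SE 0.38, adjusted p = 0.541) or in ATRA vs LE540 (log2 change 1.14, SE 0.38, adjusted p = 0.37). Without ATRA replicate 2 the latter change was 0.67, and that in ATRA vs DMSO went from 0.10 to -0.37.

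Sfrp2 (10492798), a mesenchymal member of the same family, read 443, 600.0 and 700.3 on the DMSO arrays, 746, 728 and 762 on the ATRA arrays and 609, 643 and 523 on the LE540 arrays. The ATRA arrays were tight and above every DMSO and LE540 array, and Sfrp2 did not pass in ATRA vs DMSO (log2 change 0.38, SE 0.16, adjusted p = 0.999). Without DMSO replicate 1, its lowest array, the change was 0.20. Sfrp5 and Wif1 had log2 changes of 0.22 and -0.20 in ATRA vs DMSO and 0.22 and -0.19 in LE540 vs DMSO, none of which passed. The valve interstitial markers differed alongside: 10 of 10 had higher means with ATRA than with LE540 and 9 of 10 had lower means with LE540 than with DMSO, although none passed. Their summed intensity was 19653 to 26200 on DMSO, 26063 to 28120 on ATRA and 14184 to 23764 on LE540 arrays, lowest on LE540 replicate 1, and none of the 10 lay below the lower quartile. Their part in the differences of the antagonists was not tested.

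**Figure D2:**
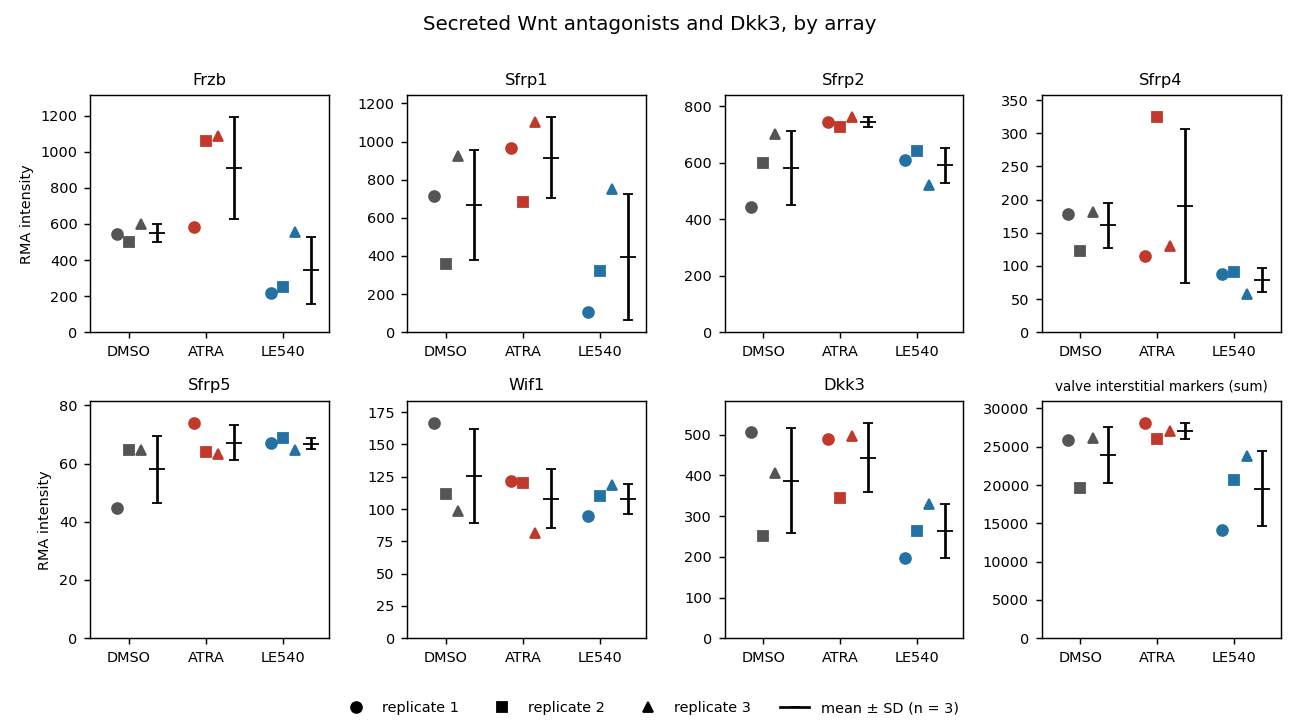
RMA intensity (y axis, from 0) of the 6 secreted Wnt-binding antagonists and Dkk3 on each array, by group (x axis), with the summed intensity of the 10 valve interstitial markers in the last panel; symbols mark replicates and bars the mean ± SD of 3 arrays. Frzb reads 585 to 1089 with ATRA and 219 to 556 with LE540, and LE540 replicate 1 is the lowest array for Frzb, Sfrp1, Dkk3 and the marker sum.

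None of the 4 Dickkopf members passed in limma, and 2 had an unadjusted p under 0.05, both in ATRA vs LE540 (50%, against 9.54% of all tested probe sets). Dkk3 (10567010), a divergent member of the family whose binding to the co-receptors is not settled, read 506, 251 and 405 on the DMSO arrays, 488, 345 and 498 on the ATRA arrays and 198, 264 and 330.4 on the LE540 arrays. The ATRA arrays lay above every LE540 array (log2 change 0.76, SE 0.28, adjusted p = 0.44), whereas the DMSO arrays overlapped both groups. Dkk2 (10496125) read 94.5, 115 and 123 on the DMSO arrays, 135, 152 and 113 on the ATRA arrays and 112, 112 and 88.2 on the LE540 arrays. ATRA also lay above every LE540 array for Dkk2, narrowly at the closest pair (log2 change 0.36, SE 0.16, adjusted p = 0.521). Dkk1 and Dkk4, the classical co-receptor blockers, had log2 changes of -0.02 and -0.14 in ATRA vs DMSO and 0.01 and -0.15 in LE540 vs DMSO.

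The R-spondin system held the 1 member that passed. Lgr6 (10357965), the R-spondin receptor also known as a marker of stem cells in skin, read 126, 131 and 139 on the DMSO arrays, 210.3, 201 and 229.6 on the ATRA arrays and 147, 128 and 128 on the LE540 arrays. The 3 ATRA arrays stood apart from the other 6 arrays with no overlap, and DMSO and LE540 arrays overlapped. Group means were 132 ± 6.74 for DMSO, 214 ± 14.4 for ATRA and 134 ± 10.6 for LE540 (SD, n = 3 arrays each).

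Lgr6 rose in ATRA vs DMSO by 0.70 log2 (SE 0.10, limma adjusted p = 0.0984) and in ATRA vs LE540 by 0.67 log2 (SE 0.10, limma adjusted p = 0.0451). Neither rise reached 2-fold. LE540 vs DMSO differed by 0.03 log2 with a 95% interval of -0.20 to 0.25. The first call lay close to the threshold. With the replicate number as a block its adjusted p was 0.164, and with 1 array left out it did not pass in 8 of 9 cases (0.151 to 0.521, the highest without DMSO replicate 1), LE540 replicate 1 being the exception (0.0756). The second call held with the block (0.0695) and did not hold when ATRA replicate 3 (0.16), ATRA replicate 1 (0.118) or DMSO replicate 3 (0.105) was left out, with the 2 groups alone in the fit (0.213) or with a cardiomyocyte marker score as a covariate (0.108). With 1 array left out the size lay between 0.64 and 0.74 log2 over DMSO and between 0.62 and 0.74 over LE540.

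The summed intensity of 7 mesothelial and epithelial markers was 674 to 735 on DMSO, 993 to 1040 on ATRA and 656 to 781 on LE540 arrays; 5 of 7 had higher means in ATRA vs DMSO, 1 of them passing (Krt18), and Cdh1 and Epcam, defining epithelial genes, lay below the mean lower quartile. Krt18 averaged 84.9 ± 22.7 on DMSO and 297 ± 63.4 on ATRA arrays and Krt19, which did not pass, 71.9 ± 7.07 and 149.9 ± 30 (SD, n = 3). Only these 2 of the 7 changed over 1.5-fold in ATRA vs DMSO, and the median log2 change of the 7 was 0.14. Upk3b and Msln, mesothelial genes, averaged 86.9 and 87 on DMSO and 90.2 and 96.7 on ATRA arrays. The summed intensity of 5 smooth muscle markers was 1538 to 3317 on DMSO, 2989 to 6588 on ATRA and 1502 to 2593 on LE540 arrays, ranges of DMSO and ATRA that overlap, with 5 of 5 means higher in ATRA vs DMSO and none passing. Xist, the RNA of the inactive X chromosome, averaged 2595 ± 305 on DMSO, 602 ± 696 on ATRA and 1025 ± 847 on LE540 arrays (SD, n = 3). Over DMSO its log2 change was the lowest of all tested probe sets, -2.93 with ATRA and -2.32 with LE540, without overlap and without passing. The 3 measured Y-linked genes had higher means in both comparisons, with overlap between groups and none passing. With a Y-linked score as a covariate, added after the data were seen, the ATRA vs DMSO change of Lgr6 was 0.62 log2 (adjusted p = 0.397), and with a cardiomyocyte marker score it was 0.64 (adjusted p = 0.269). The part of the epithelial and smooth muscle markers in the rise of Lgr6 was not tested.

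The 2 other Lgr receptors did not pass. Lgr5 (10372503), the stem cell marker of the gut, read 64.4, 66.2 and 56.9 on the DMSO arrays, 64.4, 59.6 and 67.8 on the ATRA arrays and 76.7, 71.9 and 61.7 on the LE540 arrays, around the lower quartile of the arrays, with overlap between all groups. Its 95% interval in ATRA vs DMSO was -0.23 to 0.30. Lgr4, the broadly expressed receptor of the family, ran from 58.2 on LE540 replicate 1 to 264 on LE540 replicate 3, a span that covers every DMSO and ATRA array.

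Rspo3 (10368495), the R-spondin known from blood vessels and the heart, read 209.8, 182 and 252 on the DMSO arrays, 252, 178 and 204 on the ATRA arrays and 88.6, 86.4 and 189 on the LE540 arrays. LE540 replicates 1 and 2 stood below all other arrays, and LE540 replicate 3 lay inside the DMSO and ATRA ranges. Rspo3 did not pass in LE540 vs DMSO (log2 change -0.91, SE 0.29, adjusted p = 0.529) or in ATRA vs LE540 (log2 change 0.89, SE 0.29, adjusted p = 0.37). It passed in both without LE540 replicate 3 (log2 change -1.28, adjusted p = 0.0672, and 1.26, adjusted p = 0.0536). Leaving out that array also raised the calls over all tested probe sets from 7 to 297 in LE540 vs DMSO. With other single arrays left out the adjusted p of Rspo3 reached 0.907 and 0.682, and its smallest changes were -0.72 and 0.69. Rspo4 (10477035), the R-spondin needed for nails, read 65.1, 74.5 and 76.6 on the DMSO arrays, 95.4, 79.1 and 81.4 on the ATRA arrays and 95.1, 83.8 and 78.1 on the LE540 arrays. Both treated groups lay above every DMSO array, with log2 changes of 0.24 and 0.25 that did not pass (adjusted p = 0.999 and 0.59); the 2 comparisons share the DMSO arrays. Without ATRA replicate 1 the first change was 0.16. Rspo4 was dim, below the array median on all 9 arrays. On DMSO replicate 1 it lay below the lower quartile of the array (65.1 against 65.8). Rspo1 and Rspo2 had log2 changes of 0.01 and -0.14 with ATRA and -0.04 and 0.05 with LE540, over DMSO.

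Znrf3 (10383982), a ligase that clears Frizzled receptors, read 165, 175 and 179 on the DMSO arrays, 135, 181 and 129.7 on the ATRA arrays and 222, 209 and 197 on the LE540 arrays. Each LE540 array lay above every DMSO and ATRA array, and ATRA replicate 2 lay above the DMSO arrays while ATRA replicates 1 and 3 lay below them. Znrf3 did not pass in ATRA vs LE540 (log2 change -0.51, SE 0.13, adjusted p = 0.248), and passed there without ATRA replicate 2 (log2 change -0.66, adjusted p = 0.07). With other single arrays left out its adjusted p there reached 0.556, and its smallest change was -0.42. Its paralogue Rnf43 (10380116) read 96.2, 98.3 and 94.4 on the DMSO arrays, 96.3, 90.1 and 99 on the ATRA arrays and 111, 94.9 and 83.2 on the LE540 arrays. The Rnf43 groups overlapped throughout, with a 95% interval of -0.28 to 0.25 in ATRA vs DMSO and -0.27 to 0.26 in LE540 vs DMSO.

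**Figure D3:**
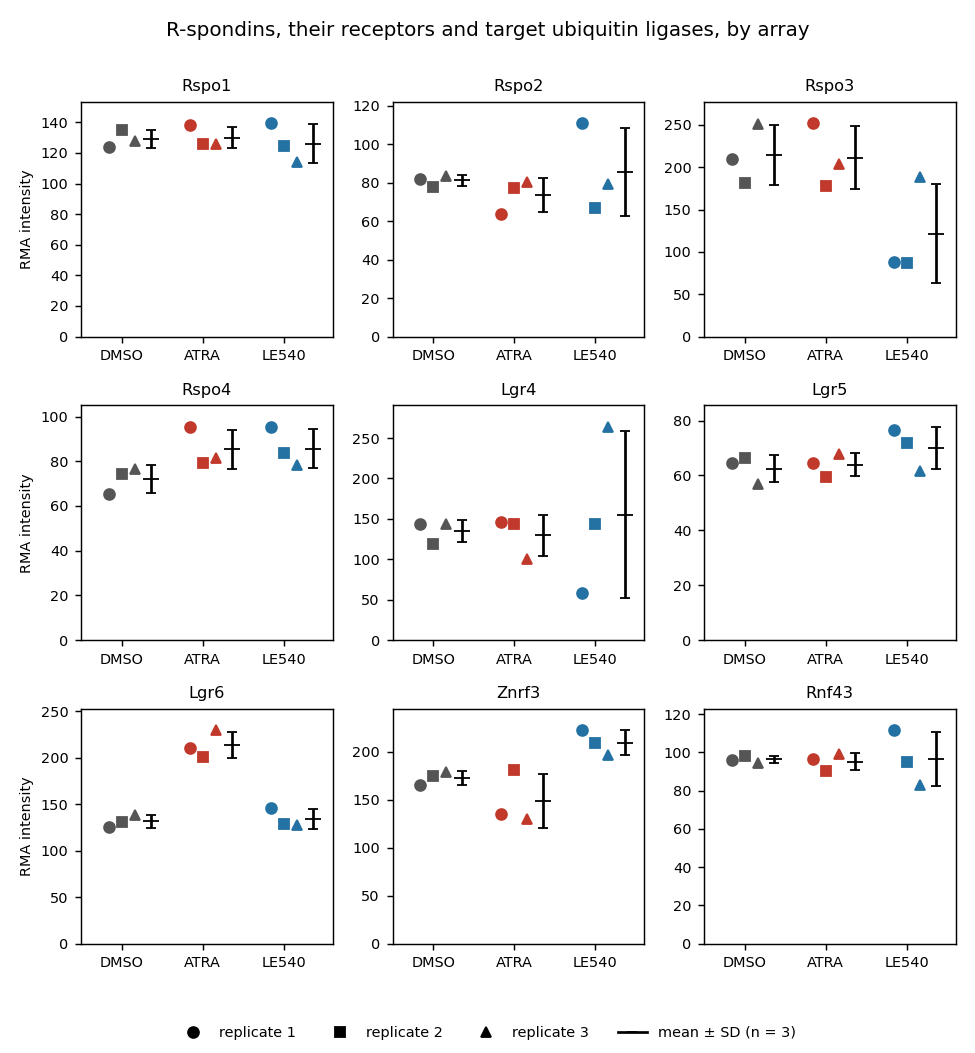
RMA intensity (y axis, from 0) of the 9 R-spondin system members on each array, by group (x axis); symbols mark replicates and bars the mean ± SD of 3 arrays. Lgr6 reads 201 to 229.6 on the ATRA arrays and 126 to 147 on the other 6, Znrf3 is highest on the LE540 arrays, and Rspo3 is lowest on LE540 replicates 1 and 2.

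Promoter sequence of 37 of the 55 member genes was matched by symbol in RefSeq (GRCm38.p6), as 44 windows of 300 bases, from 250 before to 50 after a gene's start. The window of Lgr6 is shown because Lgr6 is the member that passed, and that of Frzb because it holds both motifs searched. Capitals mark matches on either strand to CTTTGA, the core bound by Tcf and Lef factors (TCAAAG on the other strand), or to AGGTCA, a half-site of retinoic acid receptors (TGACCT on the other strand).
Lgr6 (chr1:135105227-135105526, minus strand): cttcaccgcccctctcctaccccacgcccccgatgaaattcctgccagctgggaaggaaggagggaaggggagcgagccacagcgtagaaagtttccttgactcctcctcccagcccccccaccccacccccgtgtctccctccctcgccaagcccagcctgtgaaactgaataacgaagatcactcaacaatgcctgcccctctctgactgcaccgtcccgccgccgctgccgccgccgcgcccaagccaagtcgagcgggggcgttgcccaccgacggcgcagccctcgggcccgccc
Frzb (chr2:80447347-80447646, minus strand): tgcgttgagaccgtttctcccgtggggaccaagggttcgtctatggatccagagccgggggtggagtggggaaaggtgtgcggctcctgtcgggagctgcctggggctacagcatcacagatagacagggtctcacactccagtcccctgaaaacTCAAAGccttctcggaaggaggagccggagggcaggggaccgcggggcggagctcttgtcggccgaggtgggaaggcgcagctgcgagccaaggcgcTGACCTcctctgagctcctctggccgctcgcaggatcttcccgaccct

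The Lgr6 window holds neither set of letters. The Frzb window holds TCAAAG with its first base 95 bases before the start, and TGACCT with its first base at position 3 from the start. CTTTGA was found in 7 of 44 member windows (15.9%), those of Dkk1, Frzb, Fzd1, Lef1, Sp5, Wnt11 and Wnt5b, and in 16% of all 32851 windows in the table. AGGTCA was found in 2 of 44 member windows (4.55%), those of Frzb and Wnt16, and in 16.3% of all. A direct repeat of AGGTCA with any 5 bases between the copies, or with any 2, was in 0 member windows and in 0.00913% of all windows each. These are descriptions of letters in a short window and say nothing of binding.

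Genes that beta-catenin signalling is known to induce as feedback gave no passing change. In limma 0 of 5 feedback inhibitors and 0 of 2 transcription factors passed in any comparison. Among these, at an unadjusted p under 0.05 there was 1, Nkd2 in ATRA vs LE540, higher with ATRA. The feedback genes Znrf3, Rnf43 and Lgr5 were counted with the R-spondin system above, and none of them passed with all 9 arrays in the fit. Znrf3 also lay under that unadjusted threshold in ATRA vs LE540, lower with ATRA and without overlap (log2 change -0.51, SE 0.13). Rnf43 and Lgr5 did not lie under it in any comparison. Axin2 (10382228), a scaffold of the beta-catenin destruction complex and the usual readout of the pathway, read 177, 164 and 197 on the DMSO arrays, 177, 177 and 171 on the ATRA arrays and 183, 177 and 171 on the LE540 arrays. The groups overlapped, and the 95% intervals were narrow: -0.24 to 0.19 log2 in ATRA vs DMSO, -0.23 to 0.20 in LE540 vs DMSO and -0.23 to 0.20 in ATRA vs LE540. Axin2 carries the same value, 177 (177.05 in the file), on 3 of the 9 arrays.

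Lef1 (10496091), a factor that takes up beta-catenin on DNA and is itself a target, read 153, 196 and 169.6 on the DMSO arrays, 221, 149 and 163 on the ATRA arrays and 147, 162 and 164 on the LE540 arrays. Its groups overlapped, with 95% intervals of -0.34 to 0.39 in ATRA vs DMSO and -0.49 to 0.24 in LE540 vs DMSO. Sp5 (10472688), a target that acts as a repressor, read 69.8, 74.7 and 97.6 on the DMSO arrays, 141, 91.2 and 89.2 on the ATRA arrays and 109.6, 101 and 77.7 on the LE540 arrays. ATRA replicate 1 stood above all other arrays of Sp5, which overlapped (log2 change 0.39, SE 0.22, adjusted p = 0.999 in ATRA vs DMSO). Without ATRA replicate 1 the change was 0.18.

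Nkd1 (10573779) and Nkd2 (10410547) bind Dishevelled inside the cell and damp the signal. Nkd1 read 173, 213 and 213 on the DMSO arrays, 225, 168 and 377 on the ATRA arrays and 176, 250.0 and 174 on the LE540 arrays. ATRA replicate 3 held the highest value and ATRA replicate 2 the lowest of the 9, so its range covers the other groups (log2 change 0.29, SE 0.28, adjusted p = 0.999 in ATRA vs DMSO). Without ATRA replicate 3 the change was -0.03, on the other side of 0. Nkd2 read 78.8, 108 and 91.7 on the DMSO arrays, 103, 129.7 and 128 on the ATRA arrays and 75.5, 109 and 88.3 on the LE540 arrays. ATRA overlapped DMSO and LE540 at its lowest array, and Nkd2 did not pass in ATRA vs DMSO (log2 change 0.38, SE 0.17, adjusted p = 0.999) or in ATRA vs LE540 (log2 change 0.41, SE 0.17, adjusted p = 0.489).

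Notum (10393904), an enzyme that strips the lipid from Wnt ligands, read 89.4, 80.8 and 100.1 on the DMSO arrays, 129, 89.2 and 96.5 on the ATRA arrays and 109, 120.2 and 95.5 on the LE540 arrays. All groups overlapped and none of its comparisons passed (adjusted p from 0.64 to 0.999). Apcdd1 (10456184), a membrane inhibitor of Wnt signalling, read 218, 183 and 349 on the DMSO arrays, 191, 152 and 216 on the ATRA arrays and 142, 205 and 173 on the LE540 arrays. DMSO replicate 3 stood above the rest of Apcdd1. Its differences did not pass (log2 -0.38 with ATRA and -0.49 with LE540, over DMSO), and without DMSO replicate 3 they were -0.12 and -0.22.

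**Figure D4:**
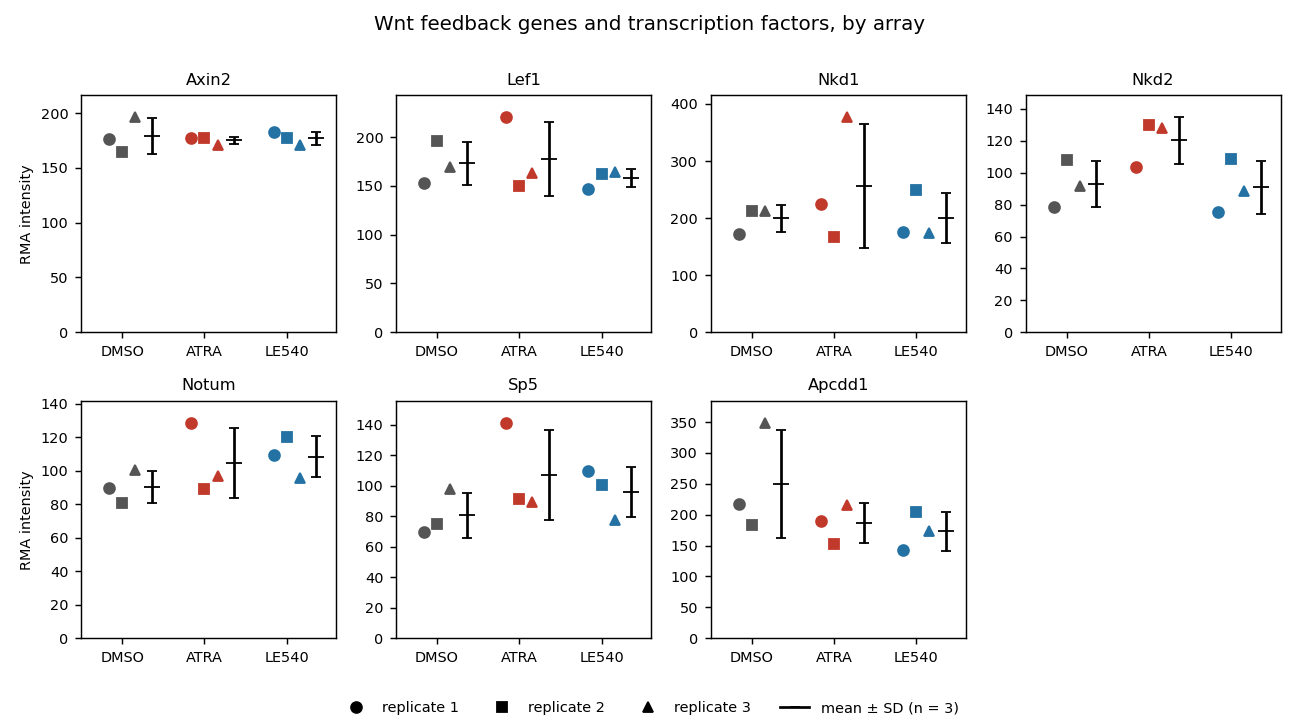
RMA intensity (y axis, from 0) of the 5 feedback inhibitors and of the transcription factors Lef1 and Sp5 on each array, by group (x axis); symbols mark replicates and bars the mean ± SD of 3 arrays. Axin2 stays between 164 and 197 on all 9 arrays, and the single high points are DMSO replicate 3 for Apcdd1, ATRA replicate 3 for Nkd1 and ATRA replicate 1 for Sp5.

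Pathway genes outside the members were counted in 4 lists, and none of them passed in any comparison. Of 15 genes for Wnt secretion and co-receptors, 8 had higher means in ATRA vs DMSO, 6 in LE540 vs DMSO and 7 in ATRA vs LE540. At an unadjusted p under 0.05 there were 0, 2 and 3 (0%, 13.3% and 20%). The 2 were the co-receptors Lrp5 (-0.35 log2, SE 0.13) and Lrp6 (-0.41, SE 0.15), both with an adjusted p of 0.541 with LE540 over DMSO. Of 25 genes of the beta-catenin machinery, 11, 10 and 13 had higher means in the same order. An unadjusted p under 0.05 was held by 1, 2 and 4 (4%, 8% and 16%). Ctnnb1, which encodes beta-catenin, read 1647, 1630.3 and 1439.6 on the DMSO arrays, 1899, 1643 and 1773 on the ATRA arrays and 1009, 1381 and 1259 on the LE540 arrays. It did not pass in LE540 vs DMSO (log2 change -0.38, SE 0.13, adjusted p = 0.541) or in ATRA vs LE540 (log2 change 0.55, SE 0.13, adjusted p = 0.192). The other of the 2 in LE540 vs DMSO was Tcf7l2 (log2 change -0.77, SE 0.27, adjusted p = 0.541). The 1 in ATRA vs DMSO was Tle4 (log2 change -0.58, SE 0.15, adjusted p = 0.652). Of 13 planar polarity genes, 4, 7 and 5 had higher means and 0, 1 and 1 had an unadjusted p under 0.05 (0%, 7.69% and 7.69%). Of 11 general target genes, 6 had higher means in each comparison and 1, 1 and 2 had an unadjusted p under 0.05 (9.09%, 9.09% and 18.2%). The 1 in LE540 vs DMSO was Myc (log2 change 0.97, SE 0.41, adjusted p = 0.558), with overlap, as DMSO replicate 2 read 1155 and LE540 replicate 3 read 1012. Sox4 was the 1 in ATRA vs DMSO (log2 change 0.37, adjusted p = 0.985). The 2 in ATRA vs LE540 were Sox4 (log2 change 0.43, adjusted p = 0.346) and Ccnd2 (log2 change -0.62, adjusted p = 0.417).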

How the data were processed

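RNA of 9 pooled explant samples was hybridised to 1-colour arrays after amplification and biotin labelling, per the labels. The deposited values are RMA intensity values, made by the authors with Affymetrix Expression Console 1.1, per the submitters' processing notes; no annotation or genome build is given in the sources used here. The intensities are linear, so log2 was taken here before any test. Probe sets with at least 1 gene symbol in the platform table were tested (23397 of 28270 rows: 21780 with 1 symbol, 1617 with several; 4873 had none listed).

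A limma 3.58.1 fit (R 4.3.3) of 3 group means over 9 arrays, with 6 residual and 2.72 prior degrees of freedom, gave 3 two-sided contrasts, Benjamini-Hochberg adjusted over the 23397. Members, lists, the naming rule and tests were chosen with earlier results of these data known. The rule gives per-array values for passing members, the 10 smallest p in each comparison, the 2 smallest p in each role and 10 measured feedback genes, 25 members in all; other members are given by range. Genes outside the members were named after their values were seen.

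Same-numbered replicates deviated together for ATRA and DMSO (r = 0.143, 0.342 and 0.22) and for ATRA and LE540 (0.261, 0.282 and 0.269), and less so for LE540 and DMSO (0.00946, 0.215 and 0.126); the blocked fit (replicate number added as a term) is given where it changes a call in the first 2. Alternatives covered normalization, the arrays and rows in the fit, array weights, the prior, dropping dim probe sets, the threshold, 1 probe set per gene, each array left out, and marker scores as covariates, the last chosen after seeing the data. On simulated data of 23397 probe sets with 200 changed, the ATRA vs DMSO fit recovered 44% of 1.5-fold, 80% of 2-fold and 95% of 4-fold changes; 19 of its 176 calls were false. In LE540 vs DMSO it recovered 34%, 68% and 94% (14 of 159 false), and in ATRA vs LE540 38%, 72% and 94% (22 of 171 false). The data gave fewer calls, 19, 7 and 141 in the same order. With fewer calls the adjustment asks for a smaller unadjusted p, so these shares can overstate what was recoverable in the data. The number of arrays, 3 a group, and the spread within groups bound the precision. The same-numbered pairing comes from the data, since no label says what a number shares.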

Additional observations from a re-analysis of the deposited data

How the results depend on the processing

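In ATRA vs DMSO the number of passing members, 1 as reported, was 0 at an adjusted p under 0.05, with the replicate block, with the 2 groups alone in the fit, among brighter probe sets alone, with all rows tested, with a trended robust prior, with 1 probe set per gene and with the endothelial, cardiomyocyte or Y-linked score; it was 1 after quantile normalization and with array weights. With 1 array left out it ran from 0 to 1. In LE540 vs DMSO it was 0 in every setting other than leaving out 1 array, which gave 0 to 1 (Rspo3, without LE540 replicate 3). In ATRA vs LE540, 1 as reported, it was 2 with the replicate block (Lgr6 and Frzb), 0 with the 2 groups alone, 0 with the cardiomyocyte score and 1 in the other settings; with 1 array left out it ran from 0 to 3, the 3 being Lgr6, Rspo3 and Frzb without LE540 replicate 3. The log2 change of Lgr6 was above 0 in all 20 alternatives of both ATRA comparisons, with an adjusted p from 0.0234 to 0.521 over DMSO and from 0.0341 to 0.213 over LE540. Fits with fewer probe sets, arrays or groups differ in what they adjust over and in residual degrees of freedom; for the other losses the cause was not tested.

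Counts over all tested probe sets moved more: 19 in ATRA vs DMSO became 4 without DMSO replicate 1 or 3 and 71 with array weights; 7 in LE540 vs DMSO became 0 after quantile normalization, among other settings, and 297 without LE540 replicate 3; 141 in ATRA vs LE540 became 25 with the 2 groups alone and 278 without LE540 replicate 2. The replicate block gave 29, 1 and 221 in the same order and changed no other member's call. LE540 and DMSO arrays share replicate numbers, but only 1 of 3 LE540 arrays was closest to the DMSO array of its own number. Signal over background is unknown, which limits the dim members, among them Wnt1, Wnt3, Wnt8b, Lgr5, Rspo4, Wnt7a and Sfrp5.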

Other observations

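Some members carry exactly the same deposited value on several arrays, to the 2 decimals of the file. A value recurs on 2 or more arrays for 24 of 56 members (42.9%, against 37% of all tested probe sets) and on 3 or more for 13 (23.2%, against 16.7%). Wnt3a reads 86.96 on 6 of 9 arrays, Fzd9 147.6 and Wnt7b 111.15 on 5 each. The part of recurring values in the narrow intervals of such members was not tested.

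The 2 probe sets of Wnt4 gave log2 changes of 0.00 (10509267) and 0.05 (10509273) in ATRA vs DMSO and of 0.10 and -0.04 in LE540 vs DMSO. Of 6 retinoid genes counted in the same fit, 6 had higher means in ATRA vs DMSO, 5 of them without overlap, and 3 passed (Tgm2, Dhrs3 and Cyp26a1). Rarb (log2 change 2.25, adjusted p = 0.353) and Cyp26b1 (log2 change 0.87, adjusted p = 0.146) did not overlap and did not pass. None passed in LE540 vs DMSO, and 4 passed in ATRA vs LE540.

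Of the endothelial markers, 11 of 12 had higher means in ATRA vs DMSO and none passed. With the replicate number as a block, Emcn passed there (log2 change 1.39, limma adjusted p = 0.0601). The endothelial markers summed to 1853 to 3569 on DMSO, 2586 to 6150 on ATRA and 1676 to 3507 on LE540 arrays. Cardiomyocyte markers, 11 of 12 with lower means and none passing, summed to 12555 to 25782, 12126 to 20664 and 11613 to 21176 in the same order. Macrophage markers summed to 2103 to 4436, 2030 to 3576 and 2631 to 3581, melanocyte and Schwann markers to 591 to 972, 861 to 955 and 612 to 1243, and the 2 measured erythroid markers to 339 to 389, 304 to 331 and 316 to 354. The erythroid sums of ATRA and DMSO did not overlap; the other 4 sums did in each comparison.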
